A study of Mus musculus with 28 samples.

Results

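The 10 genes described here code for AP-1 and immediate-early transcription factors. They were taken by name from a count table of 29068 genes as Fos, Fosb, Fosl1 and Fosl2 (the Fos family), Jun, Junb and Jund (the Jun family), the AP-1 partner Atf3, and the zinc finger factors Egr1 and Egr3, and all 10 passed the filter on low counts that 18107 genes passed. RNA from skin at a back wound was sequenced at 7 time points, Day0, Day3, Day5, Day7, Day10, Day12 and Day14, with 4 libraries each and 28 in all. The question put to the time course was how the level of each factor ran through natural wound healing, with Day0 as the control. All groups were wild-type MLKL+/+ mice on the C57BL/6J background, 8 weeks old and of both sexes per the study's methods. The injury was a full punch through the back skin, and no further treatment is named. Samples took in the crust and the edges of the wound, so each library is a mixture of many cell types. The design text calls Day0 the control, while the methods begin at day 1, and the sources do not settle whether Day0 skin was unwounded, freshly wounded or a day past injury. A fold against Day0 is therefore a fold against this earliest group, whichever it was. The design text speaks of 5 repeats, and 4 libraries a day were analysed here. Labels and methods do not tie a library to an animal, so p-values measure the spread between these libraries, which may in part be technical.

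AP-1 is a family of dimers in which a Fos protein pairs with a Jun protein, or Jun proteins pair with each other or with Atf3, through a leucine zipper, and the pair binds DNA through an adjoining basic region. Many of these genes are immediate-early genes. Growth factors, cytokines and tissue damage switch them on within minutes through MAP kinases, without any new protein being needed, and both transcripts and proteins are short-lived. Egr1 and Egr3 are zinc finger factors induced by the same kinases, and their activity is held back by the corepressors Nab1 and Nab2. In skin, AP-1 factors are known for their part in keratinocyte proliferation and differentiation, in inflammation, and in the control of matrix-degrading proteases.

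By the GENCODE M21 annotation of GRCm38, the assembly that mm10 in the submitters' processing notes stands for, Fos lies on the plus strand at chr12:85473890-85477273, Fosb on the minus strand at chr7:19302696-19310051, Fosl1 on the plus strand at chr19:5447547-5455946 and Fosl2 on the plus strand at chr5:32135801-32157842. Jun at chr4:95049034-95052222 and Junb at chr8:84974484-84978718 lie on the minus strand and Jund at chr8:70698949-70700616 on the plus strand. In each of these 3 genes the transcript with the most exonic bases has 1 exon. Atf3 lies on the minus strand at chr1:191170296-191218039 and Egr3 on the plus strand at chr14:70077203-70082614. Some members share exonic bases with a gene on the other strand, and whether the counting used strand is not given in the sources used here. Fosl1 shares 1163 of its 2033 exonic bases with Ccdc85b, Jund 877 of 1668 with Gm11175, Jun 232 of 3189 with Junos, and Junb 173 of 2301 with Prdx2. The gene lengths behind the deposited length-scaled values were 1705 bases for Fosl1, 2877 for Jund, 3187 for Jun and 1840 for Junb. These overlaps may therefore not be those of the gene models that were counted. Ccdc85b stood at a mean of 20.7 CPM (the usual library-size unit of counts, here after TMM scaling) on Day0 and 15.6 on Day3, while Fosl1 went from 2.12 to 14.9.

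RefSeq promoter sequence (GRCm38.p6) was matched for 7 of the 10 genes. The 250 bases before the RefSeq start are shown for the members that rose most among these 7 (Fos and Junb), for Fosb, whose mean level on Day12 was near that of Day3, and for Jun, which moved little, so that their upstream regions can be set side by side. Each runs 5′ to 3′ on the gene's own strand. Capitals mark TGACG (the core of the cAMP response element, CRE), TATAAA and CCAAT, each searched on both strands.
Fos (chr12:85473640-85473889, plus strand): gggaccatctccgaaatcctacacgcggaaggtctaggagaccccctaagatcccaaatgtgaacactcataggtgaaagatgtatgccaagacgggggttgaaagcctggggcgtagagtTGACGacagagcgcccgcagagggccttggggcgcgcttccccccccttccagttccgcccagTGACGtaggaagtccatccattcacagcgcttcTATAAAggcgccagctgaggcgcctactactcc
Junb (chr8:84978749-84978998, minus strand): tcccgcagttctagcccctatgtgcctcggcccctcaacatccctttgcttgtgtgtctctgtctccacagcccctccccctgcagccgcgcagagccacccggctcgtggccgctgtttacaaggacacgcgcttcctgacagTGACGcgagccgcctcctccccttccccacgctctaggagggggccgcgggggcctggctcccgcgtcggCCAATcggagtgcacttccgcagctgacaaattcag
Fosb (chr7:19310046-19310295, minus strand): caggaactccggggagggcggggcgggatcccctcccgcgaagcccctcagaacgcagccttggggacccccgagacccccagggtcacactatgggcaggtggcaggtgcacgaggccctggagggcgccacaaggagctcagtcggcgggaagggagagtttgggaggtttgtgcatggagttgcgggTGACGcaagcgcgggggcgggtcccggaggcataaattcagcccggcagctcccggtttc
Jun (chr4:95052223-95052472, minus strand): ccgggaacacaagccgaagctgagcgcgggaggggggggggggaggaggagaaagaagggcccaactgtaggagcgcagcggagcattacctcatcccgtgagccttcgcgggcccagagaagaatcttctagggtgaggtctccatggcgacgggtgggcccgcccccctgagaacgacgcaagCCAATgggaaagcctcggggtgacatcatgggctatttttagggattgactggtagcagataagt
The Fos window held TGACG 129 and 66 bases before the start and TATAAA 33 bases before it, the Junb window held TGACG at 106 and CCAAT at 36, the Fosb window held TGACG at 60, and the Jun window held CCAAT at 65. TGACG was present in 4 of the 7 windows (Fos, Fosb, Junb and Atf3) and in 17.8% of the 32851 windows of that length in the table. TATAAA was present in 1 of 7 (12.4% of all windows) and CCAAT in 2 of 7 (33.85%). The Egr site GCGNGGGCG was present in Fosb and Fosl2 (4.70% of all windows). The AP-1 site TGACTCA (4.46% of all windows), the full CRE TGACGTCA (1.55%), which contains the core, and the CArG box (1.47%) had no match in the 7 windows. These are matches of letters in a window and not measured binding sites. Sites more than 250 bases upstream could not be found, so a missing match does not mean that a gene lacks the site. Variants were missed too, such as tgacatca in the Jun window, which differs from TGACGTCA by 1 letter.

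A library held 36706513 to 40655764 counts in all. The Day0 libraries spread more widely than those of any other day, with a biological coefficient of variation of 26.5% against 5.77% to 10.8% on the other days. Day0 replicates 1 and 4 differed from replicates 2 and 3 in tissue makeup. The summed level of 6 fibroblast genes was 25002 and 14286 CPM in replicates 1 and 4 and 55970.3 and 53733 in replicates 2 and 3, and that of 5 skeletal muscle genes was 26363 and 27464 against 16381 and 16701. Keratinocyte genes, which define skin, were present in every library, and 8 of them summed to 9180 and 9871 CPM against 6358 and 6804. The sum of 6 neutrophil genes was 42.7 and 38.1 CPM against 16.4 and 17.0. Replicates 1 and 4 also differed from each other, with 7 hair follicle genes at 1390.0 and 201 CPM. Heat shock genes, which handling can induce, summed to 1822 and 1600 CPM against 1465 and 1459. The part of these differences in the levels of the members was not tested. For the members, results that rest on these Day0 libraries are given below with and without them. Levels of other genes against Day0 are given with all 4 libraries. Of the members, 7 of the 10 were higher in both of replicates 1 and 4 than in replicates 2 and 3 (Fos, Fosb, Fosl1, Jun, Junb, Atf3 and Egr3), where 35.5% of all genes tested were, and 1 was lower in both (Jund), where 27.5% were.

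**Figure D1:**
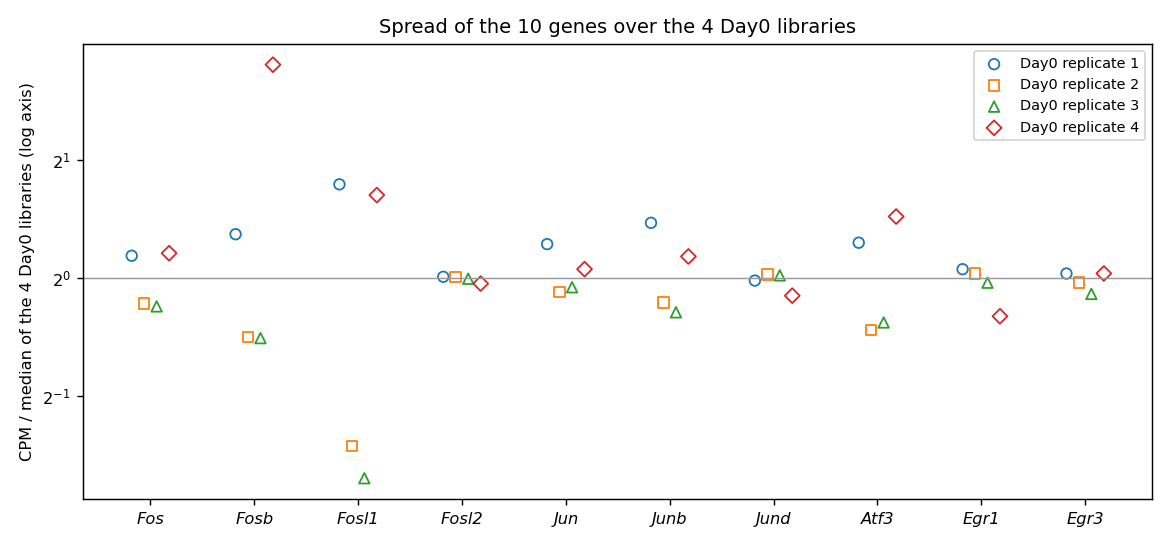
Level of each of the 10 genes in the 4 Day0 libraries, divided by the median of these 4 (log axis, 1 point per library). Fosb and Fosl1 spread 4.99-fold and 5.62-fold between the highest and the lowest library, and Fosl2 spread 1.04-fold.

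Levels are given as CPM, and a gene was called when its adjusted p was under 0.05. Over the 7 days all 10 genes differed in level (edgeR quasi-likelihood test of any difference), where 89.5% of all genes tested did. Differences between days took up 69.5% (Atf3) to 98.7% (Fos) of a member's variance in log2 CPM. Fos, Fosl1, Fosl2, Jun, Junb and Egr1 stood highest on Day3, and Fosb stood highest on Day3 and Day12. Jund was highest on Day0, Atf3 had no sharp peak, and Egr3 was lowest on Day3 and Day5 and highest on Day14. In whole tissue, fewer cells of a type and less RNA per cell cannot be told apart, and this holds for every level below.

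**Figure D2:**
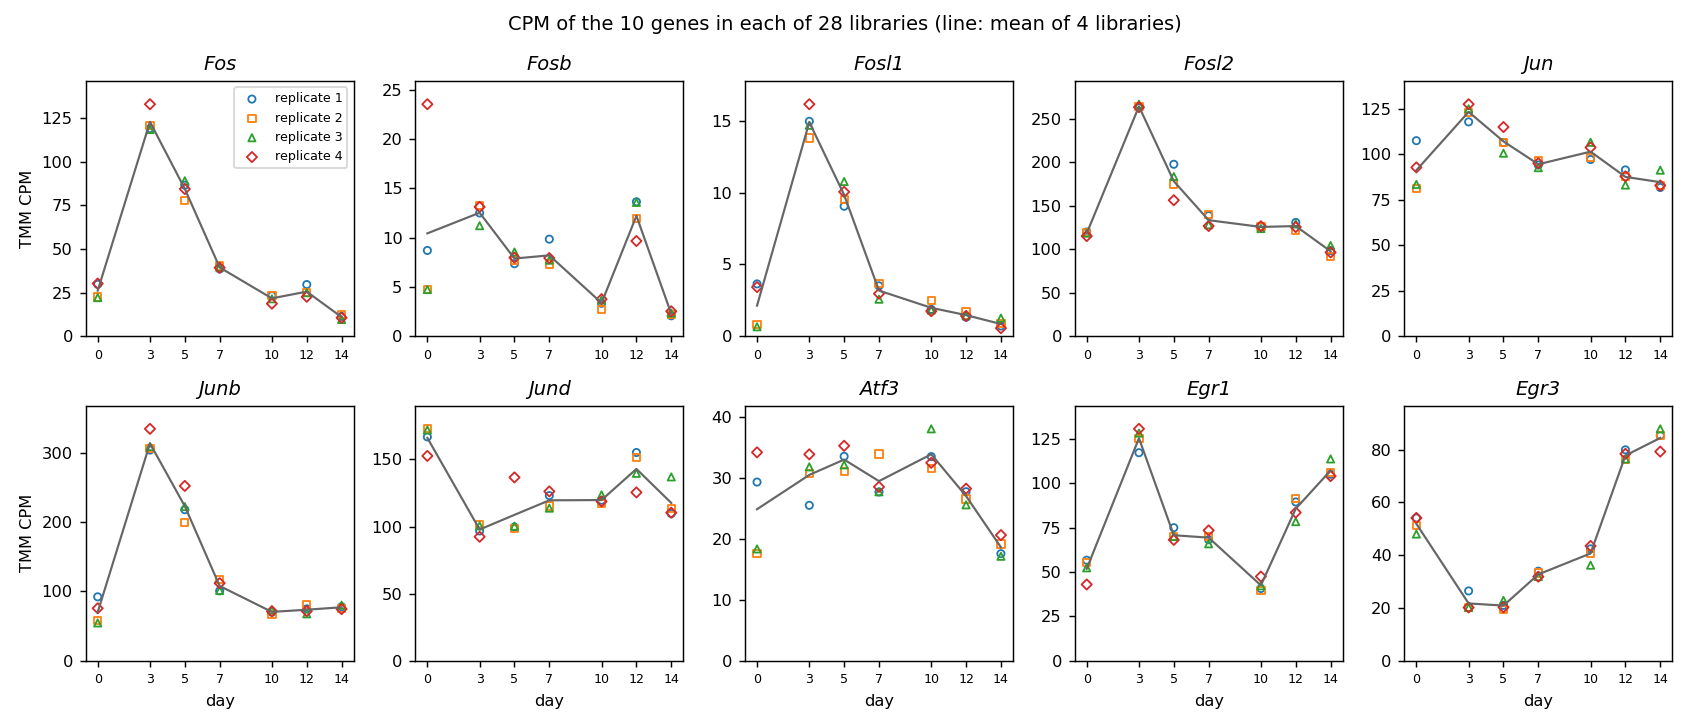
CPM (y axis, from 0) of each gene by day (x axis) in each of the 28 libraries, with a line through the mean of the 4 libraries of a day. Fos rose from 22.1 to 30.2 CPM on Day0 to between 119 and 133 on Day3, and Egr3 ran the other way, from 48.0 to 54.1 down to between 20.04 and 26.5.

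Against Day0, 6 members were higher on Day3 (Fos, Fosl1, Fosl2, Jun, Junb and Egr1) and 2 were lower (Jund and Egr3), where 31.8% of all genes tested were called higher and 34.8% lower. On Day5, 7 were higher (the same 6 genes and Atf3) and 2 lower (Jund and Egr3), beside 29% and 30.6% of all genes. On Day7, 4 were higher (Fos, Fosl2, Junb and Egr1) and 2 lower (Jund and Egr3), beside 25.6% and 24.8%. On Day10, 1 was higher (Atf3) and 5 were lower (Fos, Fosb, Jund, Egr1 and Egr3), beside 23.5% and 26.9% of all genes. On Day12, 2 were higher (Egr1 and Egr3) and 1 lower (Jund), beside 21.7% and 25.6%, and on Day14, 2 were higher (Egr1 and Egr3) and 6 lower (Fos, Fosb, Fosl1, Fosl2, Jund and Atf3), beside 28.2% and 34.5%. The median log2 fold change of the members was 0.80 on Day3 and -0.35 on Day14, beside -0.03 and -0.06 over all genes tested. By the study's limits (a log2 fold change over 1.5 in size and an unadjusted p under 0.05), 3 members were called on Day3 and the same 3 on Day5 (Fos, Fosl1 and Junb, all higher), beside 18.9% and 13.9% of all genes in either direction, 0 on Day7 (9.4%), Fosb, which was lower, on Day10 (9.47%), 0 on Day12 (7.39%) and Fosb, again lower, on Day14 (14%). Without Day0 replicate 4 the log2 fold change of Fosb was -0.85 on Day10 and -1.34 on Day14, inside these limits, which left 0 members on both days. The 4 libraries of a day lay outside the Day0 range, with no overlap, for 8 members on Day3 and 7 on Day5, beside 56.8% and 46.1% of all genes, for 6 on Day7 (39.2%), 4 on Day10 (41.4%), 3 on Day12 (38.7%) and 6 on Day14 (50.7%). These comparisons share the Day0 libraries, and the counts moved with them. Without Day0 replicates 1 and 4, 4 members were higher and 4 lower on Day10 and 3 and 4 on Day14, and without replicates 2 and 3 the counts were 0 and 7 on Day10 and 2 and 7 on Day14. The share of all genes called was not counted for these smaller sets, so these counts have no background beside them.

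**Figure D3:**
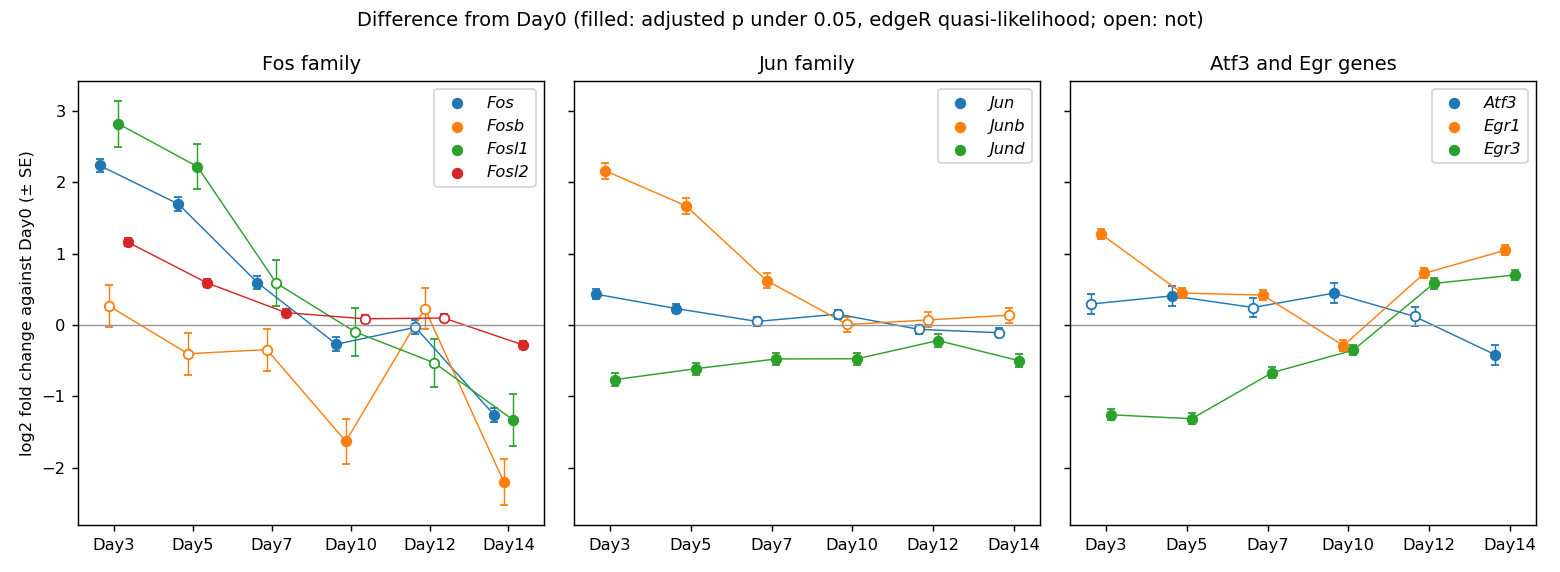
Log2 fold change of each gene against Day0 (y axis, ± SE) by day (x axis), for the Fos family, the Jun family, and Atf3 with the Egr genes. Filled points have an adjusted p under 0.05 (edgeR) and open points do not. Fos, Fosl1 and Junb lie above 2 on Day3, and Jund lies below 0 on all 6 days.

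Fos, whose protein gave the family its name, measured 29.7, 22.4, 22.1 and 30.2 CPM in Day0 replicates 1 to 4. On Day3 it measured 119, 121, 119 and 133 CPM, with no overlap between the days, which made it 4.72-fold higher (log2 fold change 2.24 ± 0.10 SE, adjusted p = 3.74e-17, exact permutation p = 0.0286, the smallest that 4 against 4 libraries can give). It was still 3.24-fold higher on Day5, at 86.6, 78.0, 89.2 and 84.5 CPM, and 1.51-fold higher on Day7, at 38.5, 40.3, 39.6 and 39.2 CPM. All libraries of Day5 lay below those of Day3, and all of Day7 below those of Day5. On Day10 Fos measured 23.2, 23.4, 21.4 and 18.6 CPM and on Day12 29.6, 25.0, 24.9 and 22.6 CPM, within or next to the Day0 range, and the call for a lower level on Day10 (adjusted p = 0.0228) was lost when Day0 replicate 1 (0.109), Day0 replicate 4 (0.119) or Day10 replicate 4 (0.112) was left out. On Day14 it measured 11.3, 12.2, 9.51 and 10.5 CPM, below all libraries of all other days, and 2.40-fold lower than on Day0 (adjusted p = 1.85e-11).

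Fosl1 codes for Fra-1, an AP-1 subunit linked to migrating epithelial cells. It had the largest relative change of the members. On Day0 it measured 3.64, 0.783, 0.648 and 3.42 CPM (25 to 138 counts), on Day3 15.0, 13.8, 14.7 and 16.2 CPM, and on Day5 9.07, 9.52, 10.8 and 10.1 CPM. Neither of these days overlapped Day0, and the differences were 7.07-fold (log2 2.82 ± 0.32 SE, adjusted p = 1.05e-08) and 4.66-fold (adjusted p = 7.6e-07). It then fell 3.10-fold from Day5 to Day7 (adjusted p = 0.000137) and measured 3.51, 3.66, 2.58 and 2.96 CPM on Day7. From Day10 the means ran from 1.97 through 1.46 on Day12 to 0.839 on Day14, each within the Day0 range. Between Day3 and Day14 the mean differed 17.8-fold, against 11.3-fold for Fos.

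Fosl2, which codes for Fra-2, measured 119.6, 119, 118 and 115 CPM on Day0 and 262, 264, 266 and 263 CPM on Day3. The spread within each of these days was small, and Day3 was 2.24-fold higher (log2 1.16 ± 0.06 SE, adjusted p = 2.65e-16). It was 1.51-fold higher on Day5 and 1.13-fold higher on Day7 (adjusted p = 0.00988). Day10 and Day12, at means of 125 and 126 CPM, lay above all Day0 libraries without passing the test (adjusted p = 0.191 and 0.143). The outcome turned on the scaling, and without a composition normalization Fosl2 was called higher on Day10 (adjusted p = 0.0272) and on Day12 (0.000417). On Day14 it measured 98.3, 91.2, 104 and 96.1 CPM, 1.21-fold lower than Day0 with no overlap (adjusted p = 9.28e-05).

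Fosb, an inducible Fos protein best known from neurons and bone, had a second peak. Its 4 Day0 libraries measured 8.69, 4.75, 4.72 and 23.5 CPM, the last one above every other library of the series. On Day3 it measured 12.5, 13.3, 11.2 and 13.1 CPM, on Day10 3.33, 2.70, 3.66 and 3.75 CPM, and on Day12 13.6, 12.0, 13.6 and 9.65 CPM. From Day10 to Day12 it therefore rose 3.63-fold with no overlap (log2 1.86 ± 0.31 SE, adjusted p = 2e-05). On Day14 it measured 2.06, 2.15, 2.33 and 2.51 CPM, 5.38-fold lower than on Day12 (adjusted p = 7.43e-07). Day3 and Day12 did not differ by the test (log2 -0.04 ± 0.29 SE, adjusted p = 0.921), and Day10 and Day14 lay below all 4 Day0 libraries (3.09-fold and 4.58-fold lower).

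Junb, a Jun protein that restrains keratinocyte and myeloid growth in mice, measured 92.1, 57.6, 54.4 and 75.6 CPM on Day0 and 304, 306, 309 and 334 CPM on Day3. It was 4.48-fold higher with no overlap (log2 2.16 ± 0.11 SE, adjusted p = 7.28e-16). On Day5 it measured 218, 199, 222 and 252 CPM and on Day7 101, 117, 101 and 112 CPM, 3.19-fold and 1.54-fold above Day0. Each step down passed the test, by 1.41-fold from Day3 to Day5, 2.07-fold to Day7 and 1.53-fold to Day10. The means of Day10, Day12 and Day14 were 70.3, 73.5 and 77.0 CPM, beside 69.9 on Day0. On Day14 the difference of Junb from Day0 was 0.14 ± 0.11 SE on the log2 scale (adjusted p = 0.256), where Fos was 2.40-fold lower. Junb was called higher on Day14 without a composition normalization (adjusted p = 0.0244), with limma on log2(FPKM + 1) (0.0135), and without Day0 replicate 1 (0.000528), replicate 4 (0.04997) or both (6.5e-06).

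Jun, the founding Jun protein, moved little. It measured 108, 81.2, 83.5 and 92.8 CPM on Day0 and 118, 123, 125 and 128 CPM on Day3, 1.35-fold higher with no overlap (adjusted p = 1.3e-06). On Day5 it measured 107, 106, 101 and 115 CPM, which overlapped Day0 replicate 1 (1.17-fold, adjusted p = 0.00309). This call was lost without Day0 replicates 2 and 3 (adjusted p = 0.152) and when Day0 and Day5 were fitted without the other days (0.0788). The means of the 4 later days ran between 84.7 and 102 CPM and did not pass the test against Day0, with the lowest adjusted p of 0.05001 on Day10 (log2 0.15 ± 0.06 SE). This outcome moved with the processing and with single libraries. On Day10 Jun was called higher without a composition normalization (adjusted p = 0.00446), without a filter (0.0483), with limma on log2(FPKM + 1) (0.00258), without Day0 replicate 1 (0.000642), Day10 replicate 1 (0.0401) or Day10 replicate 2 (0.0486), and without Day0 replicates 1 and 4 (9.15e-05). Without Day0 replicates 2 and 3 it was called lower on Day12 (0.0230) and Day14 (0.0266). On Day7 Jun was called higher than on Day0 without Day0 replicate 1 (0.0406) and without Day0 replicates 1 and 4 (0.00633). From Day7 to Day10 it was called higher without a composition normalization (0.0474) and with limma on log2(FPKM + 1) (0.0391).

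Jund, which many resting tissues express at a steady level and which can slow proliferation, went against the other Jun genes. It measured 167, 173, 172 and 153 CPM on Day0 and 96.7, 101, 101 and 92.4 CPM on Day3, 1.70-fold lower with no overlap (log2 -0.76 ± 0.09 SE, adjusted p = 1.31e-08). On Day5 it measured 99.6, 98.3, 100.3 and 137 CPM, and the means of Day7 and Day10 were 119.5 and 119.7. On Day12 it measured 155, 151, 139.6 and 125 CPM, overlapping Day0, and the call for a lower level (adjusted p = 0.041) was lost when any of Day0 replicates 1, 2 and 3 or Day12 replicates 3 and 4 was left out (adjusted p between 0.0848 and 0.162). On Day14 it was again below all Day0 libraries, at 109.6, 113, 137 and 110.3 CPM (1.41-fold lower, adjusted p = 1.49e-05).

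Per gene length the Jun family was more abundant than the Fos family. In FPKM, the deposited values scaled to gene length and library total, the 3 Jun genes summed to 121 ± 11.2 on Day0 and 228 ± 5.10 on Day3, and the 4 Fos genes to 32.3 ± 4.71 and 101 ± 2.80 (mean ± SD, n = 4). The makeup of the Jun sum turned over. Jund held 46.8% of it on Day0 and 14.0% on Day3, while Junb went from 30.3% to 70.1%, and the 2 days did not overlap for either share. By Day12 the shares were 42.4% for Jund and 34.1% for Junb, and on Day14 they were 37.3% and 38.4%. Within the Fos sum, Fosl2 held 51.3% and Fos 37.4% on Day0. Fos then led with 54.1% on Day3 and 54.9% on Day5, and Fosl2 led again with 59.0% on Day10 and 68.7% on Day14. The ratio of the Fos sum to the Jun sum was 0.266 ± 0.0325 on Day0, 0.443 ± 0.00552 on Day3 and 0.183 ± 0.00817 on Day14. These shares are descriptions of transcript levels and were not tested. They depend on the gene lengths behind the deposited FPKM, 2877 bases for Jund and 1840 for Junb, where GENCODE M21 gives 1668 and 2301 exonic bases.

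**Figure D4:**
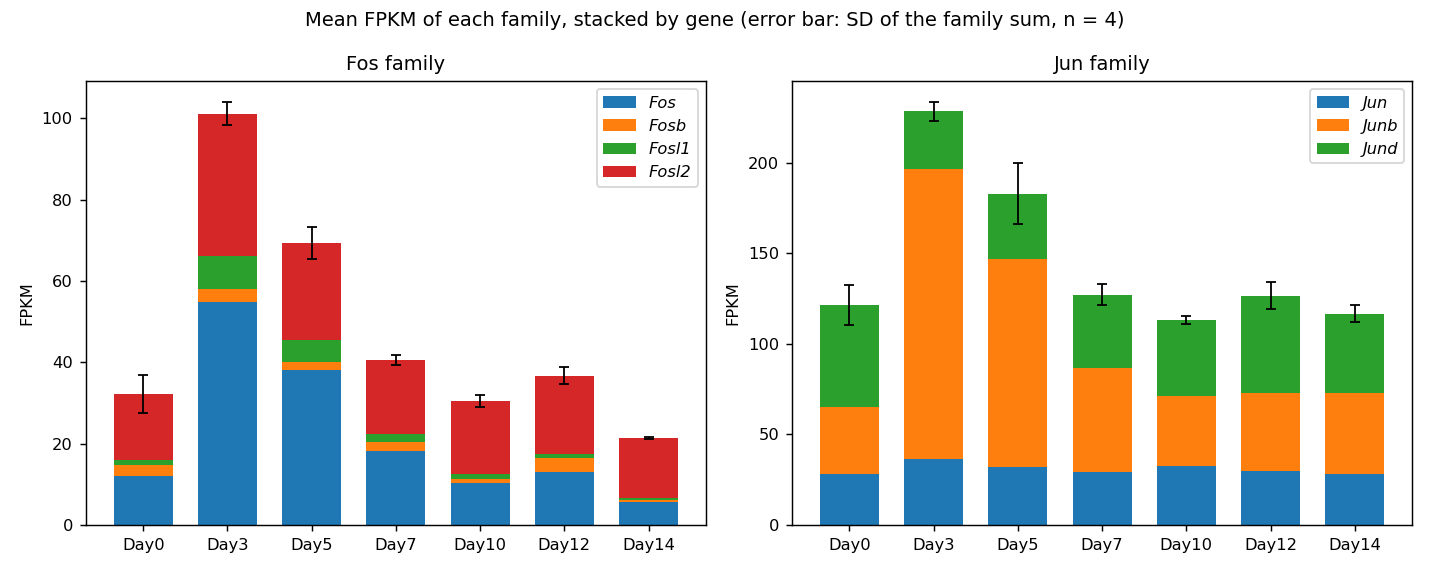
Mean FPKM by day (x axis) of the 4 Fos genes and of the 3 Jun genes, stacked by gene from 0, with error bars for the SD of the sum over 4 libraries. Junb makes up 70.1% of the Jun sum on Day3 and Jund 46.8% on Day0.

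Atf3, a stress-induced partner of Jun that often represses its targets, had the smallest part of its variance between days. On Day0 it measured 29.3, 17.6, 18.3 and 34.2 CPM, a range that took in the libraries of Day3 (25.5, 30.8, 31.8 and 33.8 CPM) and Day12 (27.7, 26.5, 25.6 and 28.2 CPM). Day5 (33.5, 31.1, 32.1 and 35.2 CPM) and Day10 (33.5, 31.5, 38.0 and 32.4 CPM) overlapped Day0 as well, although the test called both higher (1.33-fold, adjusted p = 0.0127, and 1.36-fold, adjusted p = 0.0085). On Day14 it measured 17.5, 19.1, 17.1 and 20.6 CPM, below all libraries of Day12 (1.45-fold, adjusted p = 0.00263). The call of Day14 below Day0 (adjusted p = 0.0117) was lost without Day0 replicate 1 (0.144) or replicate 4 (0.323), and the call of Day5 without Day0 replicate 2 (0.0765) or replicate 3 (0.0733).

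Egr1, the most widely studied Egr factor, had 2 high points. It measured 56.6, 55.2, 52.3 and 42.9 CPM on Day0 and 117, 125, 128 and 131 CPM on Day3, 2.42-fold higher with no overlap (log2 1.28 ± 0.07 SE, adjusted p = 6.99e-15). It fell 1.77-fold to Day5 (adjusted p = 9.92e-10), and the step to Day7 did not pass the test (log2 -0.03 ± 0.07 SE, adjusted p = 0.811). On Day10 it measured 40.6, 39.5, 42.2 and 47.4 CPM, overlapping Day0 replicate 4 and 1.22-fold lower than Day0 (adjusted p = 0.0014). On Day12 it measured 89.4, 91.2, 78.3 and 83.5 CPM, 2.02-fold above Day10 (adjusted p = 6.9e-12), and on Day14 105, 106, 114 and 104 CPM, 2.07-fold above Day0 (adjusted p = 7.93e-13). All libraries of Day14 still lay below those of Day3 (1.17-fold, adjusted p = 0.00588).

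Egr3, best known from lymphocytes, neurons and muscle spindles, ran against Egr1 early and with it late. It measured 54.1, 51.3, 48.0 and 54.1 CPM on Day0, 26.5, 20.04, 20.2 and 20.2 CPM on Day3, and 21.0, 19.5, 22.9 and 20.3 CPM on Day5. Both early days lay below all Day0 libraries, by 2.39-fold (log2 -1.26 ± 0.07 SE, adjusted p = 2.01e-14) and 2.48-fold (adjusted p = 1.5e-14). It then rose at each step, 1.57-fold to Day7 (adjusted p = 1.05e-07), 1.24-fold to Day10 (adjusted p = 0.00137) and 1.91-fold to Day12 (adjusted p = 3.83e-11). On Day12 it measured 80.0, 76.3, 76.5 and 78.4 CPM and on Day14 85.4, 85.3, 87.9 and 79.3 CPM, 1.499-fold and 1.63-fold above Day0 with no overlap, and these 2 days did not differ by the test (adjusted p = 0.18). Highest to lowest, the mean of Egr3 differed 4.04-fold, and that of Egr1 2.95-fold. The close relative Egr2 went the same way as Egr3, 2.25-fold below Day0 on Day3 (adjusted p = 2.35e-12) and 1.38-fold above it on Day14 (adjusted p = 2.13e-05).

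Between successive days, 5 members fell from Day3 to Day5 (Fos, Fosl2, Jun, Junb and Egr1) and the other 5 were not called, where 12.9% of all genes tested were called higher and 11.4% lower. Fosb and Fosl1 also had no overlap between Day3 and Day5, and both were called lower when these days were fitted without the others (adjusted p = 7.85e-05 and 0.000122, against 0.102 and 0.134 in the fit of all days). From Day5 to Day7, 5 fell (Fos, Fosl1, Fosl2, Jun and Junb) and 1 rose (Egr3), beside 14.6% lower and 13.9% higher, and from Day7 to Day10, 4 fell (Fos, Fosb, Junb and Egr1) and 1 rose (Egr3), beside 18% lower and 14.3% higher. From Day10 to Day12 the larger number rose, 4 members (Fosb, Jund, Egr1 and Egr3) against 1 that fell (Jun), beside 18.7% higher and 20.7% lower. From Day12 to Day14, 5 fell (Fos, Fosb, Fosl2, Jund and Atf3) and 1 rose (Egr1), beside 25.3% lower and 19.9% higher. By the study's limits, the counts for these 5 steps were 0, 1, 0, 1 and 1, beside 2.91%, 3.66%, 4.61%, 6.01% and 3.57% of all genes in either direction. The call for Jun between Day5 and Day7 (1.13-fold, adjusted p = 0.0369) was lost in 6 of the 8 repeats that left out 1 library. From Day10 to Day12, the rise of Jund was lost without Day12 replicate 1 (adjusted p = 0.0763) or replicate 2 (0.0642), and the fall of Jun without a composition normalization (0.0993). Fos on this step (adjusted p = 0.053) was called higher with DESeq2 (0.0482), without a composition normalization (0.00862) and with limma on log2(FPKM + 1) (0.00926), and on the 8 libraries alone Fos was called higher (0.0111) and Atf3 lower (0.000108).

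Sums of cell type markers changed over the same days, in both directions. The summed level of 6 neutrophil genes was 16.4 to 42.7 CPM on Day0 and 4359 to 5503 on Day3, that of 6 macrophage genes 1747 to 2676 and 4738 to 4911, and that of 5 wound edge keratinocyte genes 471 to 714 and 2589 to 3146. The neutrophil sum was at 20.3 to 23.2 CPM on Day12 and at 15.2 to 18.6 on Day14, there with at most 1 of the 6 genes at 0 counts. The macrophage sum was at 4881 to 5279 on Day5 and at 862 to 924 on Day14. The sum of 8 keratinocyte genes was 6358 to 9871 CPM on Day0, 4616 to 5859 on Day3 and 5438 to 6867 on Day14. That of 3 T cell genes was 17.0 to 19.6, 10.7 to 12.8 and 5.63 to 7.76 on the same days. The wound edge keratinocyte sum was at 1492 to 1800 CPM on Day14, above the Day0 range, when Fos and Fosl1 were at their lowest means. The sum of 7 hair follicle genes was 201 to 1390.0 CPM on Day0 and 7.67 to 12.8 on Day3, where Egr3 was low, and 2603 to 4191 on Day12 and Day14, where Egr3 was high. In between it was 769 to 1032 on Day7 and 238 to 274 on Day10, while Egr3 rose from a mean of 32.7 to 40.7 CPM. The sum of 5 skeletal muscle genes was 16381 to 27464 CPM on Day0, 3649 to 4743 on Day3, 7314 to 9356 on Day10, 5378 to 6055 on Day12 and 4023 to 5023 on Day14. Jund was below all Day0 libraries on Day3, Day5, Day7, Day10 and Day14 and overlapped them on Day12. The sum of 5 adipocyte genes was 1830 to 2511 CPM on Day0, 4570 to 5849 on Day3, 2043 to 2164 on Day12 and 3926 to 4222 on Day14. The fibroblast sum was 21463 to 23559 CPM on Day3, 39576 to 46058 on Day12 and 15978 to 19143 on Day14, and the last step is the one on which Fos, Fosb, Fosl2, Jund and Atf3 fell. The sum of 4 endothelial genes was 351 to 523 CPM on Day0 and 716 to 785 on Day3. The part of these shifts in the levels of the members was not tested.

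The Day0 libraries decided the sign for some members and not for others. The choice to leave out replicates 1 and 4 together, or 2 and 3 together, was made after seeing the data, from the fibroblast and muscle genes. Fosb was not called on Day3 with all 4 libraries (log2 0.27 ± 0.29 SE), was higher without replicates 1 and 4 (1.40, adjusted p = 6.3e-10), and did not pass the test without replicates 2 and 3 (-0.31, adjusted p = 0.196). On Day5 Fosb was called higher in one case (0.73) and lower in the other (-1.02), and on Day7 likewise (0.79 and -0.98). Fosl1 was not called on Day10 or Day12 with all 4 libraries. It was called higher without replicates 1 and 4 (1.46, adjusted p = 6.08e-06, and 1.03, adjusted p = 0.000882) and lower without replicates 2 and 3 (-0.84, adjusted p = 0.000421, and -1.25, adjusted p = 2.81e-06). Fos on Day10 was lower without replicates 2 and 3 (-0.47, adjusted p = 0.000158) and was not called without replicates 1 and 4 (-0.037, adjusted p = 0.771). Fosl1 on Day14 was lower with all 4 libraries (-1.33, adjusted p = 0.00221), was not called without replicates 1 and 4 (0.23, adjusted p = 0.474), and was lower without replicates 2 and 3 (-1.997). Atf3 was called higher on Day3, Day5, Day7, Day10 and Day12 without replicates 1 and 4 (0.59 to 0.92) and on none of these days without replicates 2 and 3. The early rises of Fos, Fosl1, Junb, Fosl2 and Egr1 and the early falls of Jund and Egr3 were called in both cases, as were the fall of Fos on Day14 and the rises of Egr1 and Egr3 on Day12 and Day14. The falls of Fosb on Day10 and Day14 were also called in both cases, with sizes from -0.49 to -2.26 and from -1.06 to -2.75. Junb on Day10 was higher in one case (0.33) and lower in the other (-0.25). The size of the Day3 rise of Fosl1 moved from 2.13 to 4.38 on the log2 scale. On Day7, 8 members were higher and 2 lower without replicates 1 and 4, against 4 and 2 with all libraries, and on Day12, 6 and 1 against 2 and 1. How the share of all genes called moved in the same way was not counted.

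**Figure D5:**
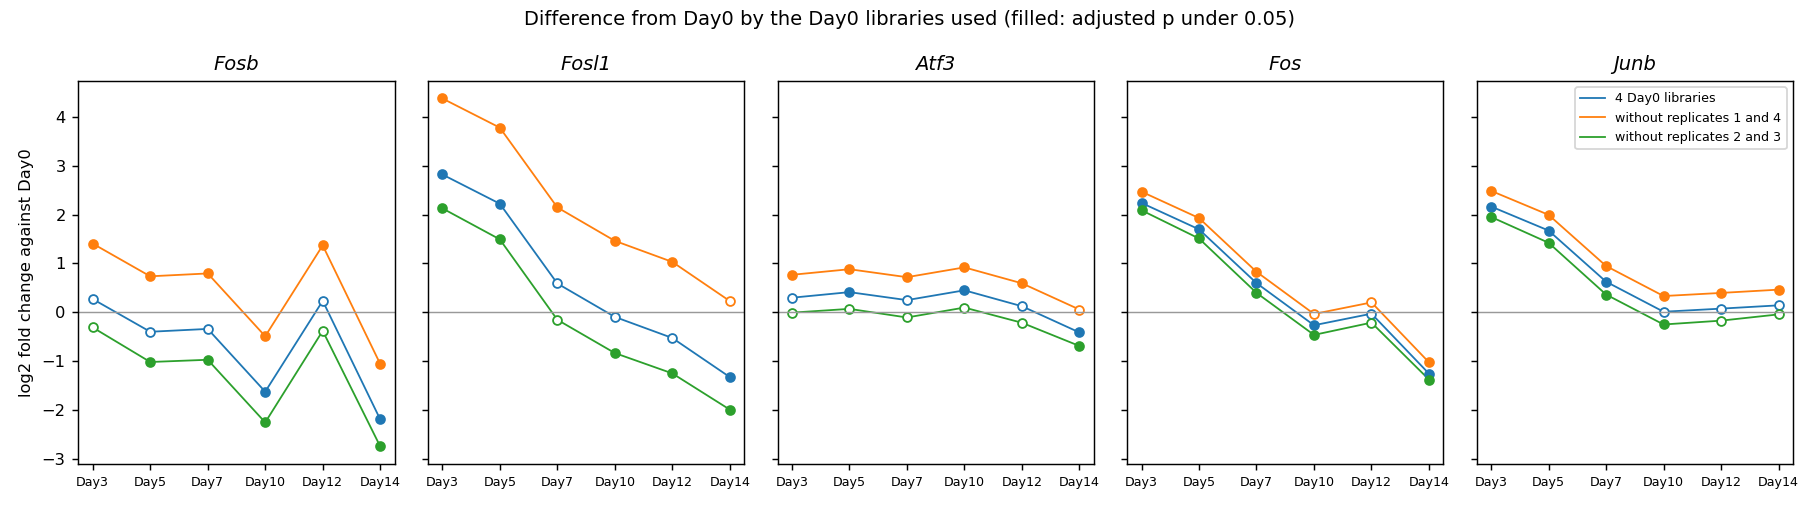
Log2 fold change against Day0 (y axis) by day (x axis) of Fosb, Fosl1, Atf3, Fos and Junb with all 4 Day0 libraries, without replicates 1 and 4, and without replicates 2 and 3. Filled points have an adjusted p under 0.05 (edgeR). For Fosb the 3 lines run from 1.40 to -0.31 on Day3, and for Fos they run from -0.037 to -0.47 on Day10.

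Genes around the members in the pathway were counted from lists chosen with earlier results of these data known. Of 22 other immediate-early genes tested, 16 were higher and 3 lower on Day3 than on Day0, with a median log2 fold change of 1.00 beside -0.03 for all genes, and on Day14, 6 were higher and 12 lower. Of all genes tested, 31.8% were higher and 34.8% lower on Day3, and 28.2% and 34.5% on Day14. The largest rise was that of Csrnp1, a nuclear protein of the immediate-early class, from 12.7 to 78.8 CPM on Day3 (6.20-fold, adjusted p = 4.12e-16), and the largest fall that of Npas4, a factor induced by neuronal activity, at 0.679 and 0.150 CPM (4.45-fold lower, adjusted p = 0.000153). Klf4, a factor of the differentiating epidermis, fell 2.08-fold on Day3. Of 11 other bZIP partners, 7 were higher and 3 lower on Day3, beside the same shares of all genes, led by Batf, the AP-1 partner of lymphoid and myeloid cells (3.24-fold, 4.26 to 13.8 CPM). The largest fall of that list was that of Batf2 on Day10 (2.75-fold lower, 3.37 to 1.22 CPM).

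Upstream of the members, 5 of 15 MAP kinases and ternary complex factors were higher and 4 lower on Day3, near the shares of all genes (31.8% and 34.8%). On Day14, 11 were lower and 4 were not called, where 34.5% of all genes were lower. Elk3, a ternary complex factor, was 2.14-fold higher on Day3 (48.7 to 104 CPM), and Elk4, its relative, was 1.56-fold lower on Day14 (25.5 to 16.4 CPM). These counts are of transcripts, and kinase activity was not measured. Of 14 brakes on MAP kinases and Egr proteins, 9 were higher and 4 lower on Day3, beside 31.8% and 34.8% of all genes. The ERK phosphatase Dusp5 was 4.71-fold higher on Day3 (7.13 to 33.6 CPM), while Dusp1, a phosphatase of p38 and JNK, was 3.27-fold lower on Day14 (78.1 to 23.9 CPM). The Egr corepressor Nab2 was 1.11-fold higher on Day3 (adjusted p = 0.0205) and 1.77-fold higher on Day14 (adjusted p = 5.02e-13), when Egr1 and Egr3 were also above Day0.

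Of 15 genes known as AP-1 targets, 13 were higher and 2 lower (Ccnd1 and Ivl) on Day3, with a median log2 fold change of 1.96, and 2 were higher and 8 lower on Day14. Of all genes, 31.8% were higher and 34.8% lower on Day3, and 28.2% and 34.5% on Day14. The cytokine Il6 was 80.7-fold higher on Day3 (0.544 to 44.3 CPM, adjusted p = 4.6e-15, with Day0 libraries from 0.130 to 1.32), and the gelatinase Mmp9 was 12.4-fold lower on Day14 (41.4 to 3.33 CPM, adjusted p = 3.35e-11, with Day0 libraries from 18.2 to 64.0). Whether members bound these genes was not measured. Of 8 heat shock genes, which can be induced when tissue is handled, 3 were higher and 3 lower on Day3, near the shares of all genes. On Day14, 6 were higher and 0 lower than on Day0, beside 28.2% and 34.5% of all genes, and from Day10 to Day12, 7 were higher and 0 lower, beside 18.7% and 20.7%. Fosb rose from Day10 to Day12 and Egr1 and Egr3 were high on Day12 and Day14, and the part of the heat shock shift in these levels was not tested. On Day3 Hsp90aa1 was 1.85-fold higher than on Day0 (130 to 239 CPM) and Hspa1a 2.60-fold lower (23.3 to 8.98 CPM).

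Among 14683 genes with a mean of at least 1 CPM, those most like each member over the 28 libraries were named by Pearson's r of log2 CPM, as a description over points that share days. Fos was most like Fermt3 (r = 0.987) and Hcls1 (0.986), Junb like Nipa2 (0.986), Rhog (0.984) and Ehd1 (0.978), and Fosl2 like Myd88 (0.977), Adamts1 (0.977) and Il1r1 (0.973). Fosl1 was most like Scarb2 (0.972), Sema4d (0.969) and Gpr35 (0.969), and Jun like Rrad (0.952), S100a11 (0.951) and Pvr (0.934). Egr3 was most like Pard6g (0.988), Esrp1 (0.984) and Sox21 (0.981), and Egr1 like Tgm1 (0.931), Dusp6 (0.921) and Ddx21 (0.894). The closest genes to the remaining members had lower values, with Cfap57 (0.923), Sgpp1 (0.913) and Tprgl (0.906) for Jund, Gcsam (0.886), Irgm2 (0.876) and Irgm1 (0.862) for Fosb, and Ostm1 (0.861), Tob2 (0.856) and Colgalt1 (0.849) for Atf3. No member was among the 3 genes most like another member.

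Whether Fos varied with the other members from library to library was asked with the days taken out, on deviations from the day means over 28 libraries. By Pearson's r, 0 of the 9 relations passed the threshold, before or after adjustment over these 9 (permutation test within days, 100000 resamples, two-sided), and by Spearman's rho 1 passed before adjustment. The closest was with Atf3 (r = 0.623, permutation p = 0.0509, adjusted p = 0.401, Spearman's rho = 0.512, permutation p = 0.0491, adjusted p = 0.236), and r was 0.556 without the 2 libraries farthest from the median of Fos, Day0 replicate 4 and Day12 replicate 1. Junb had r = 0.552 (permutation p = 0.102, adjusted p = 0.401, rho = 0.493, permutation p = 0.0524, adjusted p = 0.236). Within the 24 libraries of the later days, r was 0.216 for Atf3 and 0.122 for Junb, so these relations rested on the Day0 libraries.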

How the data were processed

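The authors deposited raw counts of reads per gene symbol and FPKM values for the same 28 libraries, and the FPKM column of a library equals its counts divided by its total and by a constant length of each gene. The submitters' processing notes name fastp, R 3.2.0 and mm10, and the methods name the TRIzol extraction and a VAHTS kit, while the aligner, counter, annotation and strand setting are not given in the sources used here. No composition correction was applied by the authors to either table.

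The count test was the two-sided quasi-likelihood test of edgeR 4.0.16 in R 4.3.3, after TMM scaling and filterByExpr on the 7 days. All 28 libraries entered a single model of the days with no covariate, with 21 residual degrees of freedom and Benjamini-Hochberg adjustment over the 18107 genes tested. Log2 CPM used a prior count of 2. For single members, 4 libraries were set against 4 in a two-sided exact permutation test of log2 CPM. On counts simulated for Day3 against Day0 with 200 of 18107 genes changed, edgeR recovered 92 of 100 genes changed 2-fold and 100 of 100 changed 4-fold with 16 false calls. The simulation gave each gene the same spread on all days, without the wider spread and the split of the Day0 libraries. Its figures therefore do not carry over to the real comparisons against Day0. The members and lists were chosen with earlier results of these data known. The genes named are all members, the 3 genes most like each member (1 of them, for Fos, is not reported here), and the largest rise and fall against Day0 of each list. Egr2, Klf4, Nab2, Ccnd1, Ivl and the overlapping genes were named for their role or position. Replicate numbers did not pair libraries across days. The alternatives were DESeq2 1.42.0, its size factors in edgeR, no composition normalization, no filter, each comparison on its 8 libraries alone, the replicate number as a block, limma 3.58.1 on log2(FPKM + 1) with and without a filter and on log2(FPKM + 0.1), the study's limits, and each library left out in turn. Sequences came from RefSeq tables and were searched in Python 3.11.15. Intervals and floors for 0 counts were not needed, since all members had counts in all libraries.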

Additional observations from a re-analysis of the deposited data

Results flagged for a closer look

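Each of the 10 genes on each of the 7 days gave a group of 4 libraries, and in 6 of these 70 groups 1 library lay far from the other 3 for the spread of the group (by Dixon's critical value for 4 samples), where chance alone gives about 1 in 20, or 3.5. Jund was high in Day5 replicate 4 (log2 CPM 7.09, the others 6.62 to 6.65) and in Day14 replicate 3 (7.10, the others 6.78 to 6.83). Jun was also high in Day14 replicate 3 (6.51, the others 6.35 to 6.37). Egr3 was high in Day3 replicate 1 (4.73, the others 4.33 to 4.34), and Atf3 in Day7 replicate 2 (5.09, the others 4.79 to 4.84). Fosl2 was low in Day10 replicate 3 (6.95, the others 6.98 to 6.98). The calls of Egr3 on Day3 and of Jund on Day5 and Day14 against Day0 held when any 1 library of either day was left out.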

How the results depend on the processing

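The counts of called members stayed within 1.5 times of those reported with DESeq2, with its size factors, without a composition normalization, without a filter and on the 8 libraries of each comparison. Single calls were lost all the same. On the 8 libraries alone, Jun (adjusted p = 0.0788) and Atf3 (0.118) on Day5, Fosl2 on Day7 (0.0849), Fos (0.120) and Atf3 (0.0850) on Day10, Jund on Day12 (0.0556), and Fosl1 (0.0900) and Atf3 (0.188) on Day14 were not called. The same setting called 8 more between later days, Fosb (7.85e-05) and Fosl1 (0.000122) from Day3 to Day5, Fosl1 (0.00490) and Atf3 (0.0252) from Day7 to Day10, Fos (0.0111) and Atf3 (0.000108) from Day10 to Day12, and Fosl1 (0.0186) and Egr3 (0.0126) from Day12 to Day14. Without a composition normalization, Fos on Day10 (0.0715), Jund on Day12 (0.481), Atf3 on Day14 (0.0742), and Jun from Day5 to Day7 (0.0884) and from Day10 to Day12 (0.0993) were not. Without the filter, Jund on Day12 (0.0631) was not. By the study's limits they were lower throughout, with 3 on Day3, 3 on Day5, 0 on Day7, 1 on Day10, 0 on Day12 and 1 on Day14 against Day0, and 0, 1, 0, 1 and 1 for the successive steps from Day3 to Day14. These limits ask for a log2 fold change over 1.5, and by the adjusted p alone the counts were 8, 9, 6, 6, 3 and 8, and 5, 6, 5, 5 and 6. limma on log2(FPKM + 0.1) called 5 members on Day12. Without Day0 replicates 1 and 4, 10 were called on Day7 and 7 on Day12. Leaving out 1 library at a time gave 2 to 5 on Day12, with 5 without Day0 replicate 4 and 2 without Day12 replicate 3 or 4, and 8 to 10 on Day3, 9 to 10 on Day5, 6 to 9 on Day7 (9 without Day0 replicate 4), 5 to 7 on Day10 and 8 to 8 on Day14. For the alternatives other than the study's limits, the share of all genes called was not counted. The cause of these differences was not tested.

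The replicate numbers did not pair the libraries. Over 84 pairs with the same number on different days, the correlation of deviations from the day means ran from -0.0762 to 0.177 with a median of -0.000911, 1 pair was over 0.1, and 8 of 28 libraries were most like their own number. With the number as a replicate block, Atf3 on Day3 was called (adjusted p = 0.0483), which gave 9 members, Jund on Day12 was not (0.0551), which gave 2, and the other counts of members called stayed as reported.

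Some differences that were small beside their error changed sign. Without a composition normalization, which moves all log2 fold changes against Day0 by 0.14 on Day12 and 0.13 on Day14, Fos (0.11) and Jun (0.086) on Day12, Jun on Day14 (0.019) and Egr1 between Day5 and Day7 (0.016) did so. With limma on log2(FPKM + 1), with or without the filter, and on log2(FPKM + 0.1), Fos on Day12 (0.11 and 0.12), Jun on Day12 (0.090 and 0.093) and Day14 (0.026 and 0.027), Egr1 between Day5 and Day7 (0.015 and 0.016) and Fosl1 on Day10 (0.072 and 0.28) did so. The exact tests on log2(FPKM + 1) had the opposite sign for Fos on Day12 (p = 0.4), Jun on Day12 (p = 0.343) and Jun on Day14 (p = 0.886).

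Without Day0 replicates 1 and 4 the sign changed for Fosb on Day5 (0.73) and Day7 (0.79), Fosl1 on Day10 (1.46), Day12 (1.03) and Day14 (0.23), Fos on Day12 (0.20), Jun on Day12 (0.092) and Day14 (0.043), and Atf3 on Day14 (0.054). Without replicates 2 and 3 it changed for Fosb on Day3 (-0.31) and Day12 (-0.38), Atf3 on Day3 (-0.010), Day7 (-0.11) and Day12 (-0.22), Fosl1 on Day7 (-0.16), Jun on Day7 (-0.085), and Junb on Day10 (-0.25), Day12 (-0.17) and Day14 (-0.046). Both choices were made after seeing the data. Without the 4 libraries of Day0, the correlation of Fos within days was -0.0202 with Fosb, -0.0321 with Fosl1, -0.230 with Jun and -0.0190 with Egr3.

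With 1 library left out at a time, the sign changed within these ranges against Day0, for Fosb from -0.65 to 0.39 on Day5, -0.58 to 0.44 on Day7 and -0.0059 to 1.03 on Day12, Fosl1 from -0.40 to 0.31 on Day10, Fos from -0.11 to 0.062 on Day12, and Atf3 from -0.0074 to 0.33 on Day12. Jun ran from -0.10 to 0.047 on Day12 and -0.14 to 0.059 on Day14, and Junb from -0.093 to 0.17 on Day10 and -0.024 to 0.25 on Day12. Between successive days the ranges were -0.14 to 0.017 for Egr3 from Day3 to Day5, -0.051 to 0.12 for Fosb and -0.072 to 0.0029 for Egr1 from Day5 to Day7, -0.022 to 0.036 for Jund from Day7 to Day10, and -0.0068 to 0.031 for Fosl2 from Day10 to Day12. The correlation of Fos with Fosl2 ran from -0.158 to 0.0372.

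At 36706513 to 40655764 counts a library, Fosl1 had the fewest counts, 23 to 587 a library. The 6 comparisons against Day0 share its 4 widely spread libraries, and through the single model these also enter the spread behind the p of the 5 later steps.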
